A study of Rattus norvegicus with 6 samples.

Results

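Hrc and 9 other genes of calcium cycling through the sarcoplasmic reticulum were followed in rat neonatal cardiomyocytes: Hrc, Ryr2, Atp2a2, Pln, Sln, Casq2, Trdn, Jph2, Slc8a1 and Asph. The 10 genes were taken by name from the count table, together with 6 unannotated rows that overlap 6 of them on the same strand, which gave 16 of 43035 rows. An unannotated row is a transcript model that the authors added to the annotated genes. The genes were chosen by their values in this comparison, the counts and fold changes between the groups. What is given for them, calls included, is therefore a description and not a test.

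The cells were primary cardiomyocytes from hearts of Sprague-Dawley rats at postnatal day 1. They were transfected with a scrambled siRNA (si-NC) or an siRNA directed at DYRK1A (si-DYRK1A), a protein kinase, and RNA was taken after 48 h from 3 cultures of each kind, described in the labels as biological replicates. The labels name no other agent or genotype for either group, and all 6 cultures went through transfection. Each library held between 10325074 and 11921772 counts. Levels are given as CPM, the count of a row scaled by library size to a common total. Dyrk1a itself had 0 to 3 counts per library, and the unannotated row that spans it stood at 77.7 ± 3.22 CPM (SD, n = 3) in si-NC and 82.4 ± 2.70 CPM in si-DYRK1A (edgeR log2 fold change 0.08, SE 0.06, adjusted p = 0.374). These mRNA levels therefore do not check the labels, and si-DYRK1A below means the libraries so labelled.

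In a beating cardiomyocyte, calcium entering through the plasma membrane opens the ryanodine receptor (Ryr2), and the sarcoplasmic reticulum releases its store into the cytosol. The pump SERCA2a (Atp2a2) returns the calcium, held back by phospholamban (Pln) and, mainly in atria, sarcolipin (Sln), while the sodium-calcium exchanger (Slc8a1) carries the rest out of the cell. Inside the store, calsequestrin 2 (Casq2) buffers calcium and is tied to the receptor by triadin (Trdn) and junctin (encoded by Asph). The histidine-rich calcium-binding protein (Hrc) lies in the same lumen and binds both triadin and SERCA2a, and junctophilin 2 (Jph2) bridges the reticulum to the T-tubule membrane.

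Of the 16 rows, 8 held enough counts to enter the edgeR fit, namely the annotated rows of Hrc, Casq2, Trdn, Asph, Atp2a2 and Pln and the unannotated rows over Jph2 and Slc8a1. Hrc and Trdn were lower in si-DYRK1A, with log2 fold changes of -0.55 (SE 0.09) and -0.25 (SE 0.07). Atp2a2, the Jph2 unannotated row, Pln and Casq2 were higher, with 0.26 (SE 0.04), 0.19 (SE 0.04), 0.15 (SE 0.05) and 0.13 (SE 0.04), and the Slc8a1 unannotated row and Asph lay at 0.08 (SE 0.04) and 0.05 (SE 0.06). An adjusted p below 0.05, the rule for a call, was met by 4 of these rows in the higher and 2 in the lower direction, against 15.2% of all 15513 features tested in either direction, 8.03% higher and 7.19% lower. The 3 libraries of each group did not overlap for 5 of the 8 rows and for 31.5% of all features. Since the genes were picked for this contrast, nothing is read from these counts. The median log2 fold change of the 8 rows was 0.10, beside 0.00 for all features, for which the median absolute value was 0.18. In such bulk libraries, fewer cells of a type and less RNA per cell cannot be told apart.

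Promoter sequences are shown for the pair of genes that were lower (Hrc, Trdn) and for a luminal and a pump gene that were higher (Casq2, Atp2a2). Each is the 250 bases before the transcription start in RefSeq on the build GRCr8, which is not the build of the count table. All are written from 5′ to 3′ on the strand of the gene, and capitals mark a match on either strand to one of 8 motifs. These were the TATA box, spelled TATAAA, the E-box, spelled CANNTG, the GATA site, spelled AGATAA, the GC box, spelled GGGCGG, the CCAAT box, the element known as CHR, spelled TTTGAA, and, by name alone, the MEF2 site and the CArG box.
Hrc, chr1:104949500-104949749, plus strand: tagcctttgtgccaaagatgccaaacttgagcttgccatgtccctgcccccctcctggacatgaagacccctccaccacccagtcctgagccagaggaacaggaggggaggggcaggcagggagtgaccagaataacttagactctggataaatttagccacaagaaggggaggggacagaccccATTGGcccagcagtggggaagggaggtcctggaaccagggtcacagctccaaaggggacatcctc
Trdn, chr1:26229600-26229849, minus strand: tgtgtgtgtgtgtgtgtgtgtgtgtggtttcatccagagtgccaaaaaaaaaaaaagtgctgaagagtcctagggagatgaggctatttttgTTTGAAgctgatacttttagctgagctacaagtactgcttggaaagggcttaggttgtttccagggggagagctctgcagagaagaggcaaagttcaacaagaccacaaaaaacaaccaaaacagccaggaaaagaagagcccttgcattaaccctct
Casq2, chr2:192214306-192214555, plus strand: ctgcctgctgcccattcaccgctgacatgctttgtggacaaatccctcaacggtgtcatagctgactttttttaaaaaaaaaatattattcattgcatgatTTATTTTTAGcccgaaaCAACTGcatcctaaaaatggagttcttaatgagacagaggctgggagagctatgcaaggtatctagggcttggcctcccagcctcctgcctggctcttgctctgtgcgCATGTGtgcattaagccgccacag
Atp2a2, chr12:39733269-39733518, plus strand: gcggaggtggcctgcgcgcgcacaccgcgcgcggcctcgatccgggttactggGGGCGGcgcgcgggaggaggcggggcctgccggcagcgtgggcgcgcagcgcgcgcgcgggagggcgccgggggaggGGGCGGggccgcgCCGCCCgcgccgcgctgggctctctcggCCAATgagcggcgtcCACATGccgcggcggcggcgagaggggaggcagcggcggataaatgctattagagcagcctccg
The window of Hrc held 1 match, a CCAAT box on the opposite strand 65 bases before the start. That of Trdn held only a CHR element, 158 bases before the start. The Casq2 window held a MEF2 site at 149 bases and E-boxes at 132 and 24 bases, and the GC-rich Atp2a2 window (80.0% G or C, against 58.0% for Hrc, 46.4% for Casq2 and 44.0% for Trdn) held GC boxes at 197, 120 and 107 bases, a CCAAT box at 79 and an E-box at 64. No matches overlapped within these 4 windows. The RefSeq table held 8 of the 10 genes. An E-box was found in 5 of these 8 windows and in 65.5% of all 33469 promoters, a CCAAT box in 4 (34.0%), a GC box in 2 (30.5%), a CHR element in 2 (16.2%) and a MEF2 site in 1 (2.96%). A TATA box, a GATA site and a CArG box were in none of the 8, against 12.9%, 10.3% and 1.5% of all promoters. A match is only a run of letters, and no binding was measured.

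Hrc (ENSRNOG00000020719) lies on chromosome 1 at 101324652-101328435 on the plus strand of Rnor_6.0, with a listed transcript length of 2544 bases. Its raw counts were 338, 399 and 386 in the si-NC libraries and 231, 240 and 279 in the si-DYRK1A libraries. Scaled to library size, these were 32.4, 33.7 and 32.3 CPM against 20.3, 22.6 and 24.1 CPM. All 3 si-DYRK1A libraries stood below every si-NC library, and the si-DYRK1A libraries were spread more widely among themselves. The means were 32.8 ± 0.81 and 22.4 ± 1.93 CPM (SD, n = 3), and the 95% confidence interval of the log2 fold change ran from -0.74 to -0.37. Hrc had the lowest log2 fold change of the 8 rows, while 5.50% of all features tested lay lower still.

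The neighbourhood of Hrc on chromosome 1 was also examined. Trpm4, a calcium-activated cation channel, lies on the minus strand at 101293409-101323960, so that its 5′ end is next to the start of Hrc. It stood at 48.2 ± 1.13 CPM in si-NC and 46.9 ± 2.94 CPM in si-DYRK1A (edgeR log2 fold change -0.04, SE 0.07, adjusted p = 0.779). Ppfia3, a liprin scaffold protein, lies on the opposite strand and overlaps the last 438 bases of Hrc. It held 18 to 41 counts per library (edgeR log2 fold change -0.21, SE 0.31, adjusted p = 0.717), against 231 to 399 for Hrc. Whether the counting used strand is not given in the sources used here, so reads in this overlap cannot be told apart by strand, and their part in the values of Hrc was not tested.

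Casq2 (ENSRNOG00000016243, chromosome 2, 204512302-204568656, plus strand), the main calcium buffer of the lumen, was the luminal gene with the most counts, 10100 to 12366 per library. The si-NC libraries held 968, 964 and 967 CPM, and the si-DYRK1A libraries 1088, 1041 and 1041 CPM. The groups did not overlap, and the si-NC libraries differed by less than any other gene of the set relative to their mean of 967 ± 2.15 CPM. The si-DYRK1A mean was 1057 ± 26.8 CPM, and the interval of the log2 fold change was 0.05 to 0.21. It was not called without si-NC replicate 1 (0.13) or 3 (0.12) or any 1 si-DYRK1A library (0.11 to 0.14). Casq2 and Hrc, both calcium-binding proteins of the lumen, had opposite directions.

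Trdn (ENSRNOG00000012609, chromosome 1, 25403390-25839345, minus strand), which anchors calsequestrin to the receptor, held 475 to 649 counts per library. Its level was 50.8, 54.3 and 54.3 CPM in si-NC and 46.6, 44.7 and 42.8 CPM in si-DYRK1A. The groups did not overlap. The means were 53.1 ± 2.00 and 44.7 ± 1.93 CPM, and the interval of the log2 fold change was -0.40 to -0.10. It was not called without si-NC replicate 2 (-0.24) or si-DYRK1A replicate 2 (-0.25) or 3 (-0.22). An unannotated row on the opposite strand overlaps 3336 bases of Trdn and held 29 to 59 counts per library (edgeR log2 fold change -0.34, SE 0.24, adjusted p = 0.407).

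Asph (ENSRNOG00000007445, chromosome 5, 22577675-22799349, minus strand) encodes junctin and junctate as well as the enzyme aspartyl/asparaginyl β-hydroxylase, and the count is for all of its transcripts together. It stood at 86.5, 94.3 and 93.1 CPM in si-NC and 102, 94.2 and 88.0 CPM in si-DYRK1A. The groups overlapped, and the si-DYRK1A libraries held both the highest value and one of the lowest. The means were 91.3 ± 4.21 and 94.8 ± 7.07 CPM, with an interval of the log2 fold change of -0.07 to 0.18. How much of this count is junctin cannot be read from the gene-level table. An unannotated row over 40.6% of Asph was at 0 in all libraries, as was the unannotated row over Casq2.

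The annotated row of Jph2 (ENSRNOG00000008170, chromosome 3, 159712325-159775643, minus strand) was at 0 in all 6 libraries, which allows up to 3 counts per library. The unannotated row that spans it (159709990-159802952, same strand) held 3996 to 4978 counts. Its level was 383, 357 and 368 CPM in si-NC and 416, 413 and 431 CPM in si-DYRK1A, with no overlap between groups. The means were 369 ± 13.2 and 420 ± 9.41 CPM, and the interval of the log2 fold change was 0.10 to 0.28. The unannotated row reaches past Jph2 over a neighbouring gene of the same strand, Oser1, an oxidative stress-responsive protein, whose own row held 57.6 ± 3.76 and 61.2 ± 1.69 CPM (edgeR log2 fold change 0.09, SE 0.07, adjusted p = 0.447). How the counts of the unannotated row divide between Jph2 and sequence beyond it was not tested.

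Ryr2, the release channel itself (ENSRNOG00000017060, chromosome 17, 65535403-65955606, minus strand), had almost no counts. Its annotated row held 7, 1 and 4 counts in si-NC and 6, 1 and 3 in si-DYRK1A, and the unannotated row that spans it (65534007-66122668) held 10, 5 and 13 against 8, 9 and 4. Both rows together gave 6 to 17 counts per library and 71 in all. With so few counts no difference could be seen, and the log2 fold change of the sum, -0.35 (SE 0.46), had an interval from -1.30 to 0.61. Neither row entered the main fit.

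Low annotated rows under a spanning unannotated row were common in the table. Of 4145 protein-coding genes that lie wholly inside an unannotated row of the same strand and of at least their own listed length, 88.4% had under 10 counts in every library, against 46.2% of the 14871 with no unannotated row on their strand. For Jph2 and Slc8a1 the counts appear on the unannotated row, whereas for Ryr2 and Sln both rows were low. The part that the assignment of reads to annotated and unannotated rows plays in the low values of Ryr2 and Sln was not tested, and the low values are not read as absence of the transcript.

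Atp2a2 (ENSRNOG00000001285, chromosome 12, 39553903-39603326, plus strand), the pump that refills the store, was the most abundant gene of the set and took 0.315% to 0.390% of all counts in a library. Its level was 3214, 3315 and 3138 CPM in si-NC and 3946, 3759 and 3844 CPM in si-DYRK1A. Each si-DYRK1A library stood above each si-NC library. The means were 3222 ± 89.2 and 3850 ± 93.5 CPM, and the interval of the log2 fold change, 0.18 to 0.34, was the farthest above 0 of the 8 rows.

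Pln (ENSRNOG00000000413, chromosome 20, 34633157-34642904, plus strand), the inhibitor of that pump, held 382, 381 and 429 CPM in si-NC and 456, 440 and 423 CPM in si-DYRK1A. The groups overlapped because si-NC replicate 3 was above si-DYRK1A replicate 3. The means were 397 ± 27.3 and 440 ± 16.6 CPM, with an interval of the log2 fold change of 0.04 to 0.25. Without si-NC replicate 3 the log2 fold change was 0.20, and without any 1 of the other 5 libraries it was 0.11 to 0.17 and no longer called. Cep85l, a centrosomal protein gene on the opposite strand, spans the whole of Pln and held 94 to 140 counts per library, against 3987 to 5187 for Pln (edgeR log2 fold change of Cep85l -0.23, SE 0.14, adjusted p = 0.326).

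Sln (ENSRNOG00000009047, chromosome 8, 58431407-58435654, plus strand), the second inhibitor of the pump, was at 0 in all libraries, and the unannotated row over it held 2 counts in all, 1 in each group. Both groups were at or under 3 counts per library, so no fold change is given.

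Slc8a1 (ENSRNOG00000008479, chromosome 6, 4258991-4520604, minus strand), the exchanger that expels calcium, had 1 to 3 counts per library on its annotated row and 4722 to 5663 on the unannotated row that spans it (4243844-4564298). The unannotated row stood at 453, 435 and 474 CPM in si-NC and 497, 460 and 478 CPM in si-DYRK1A. The groups overlapped. The means were 454 ± 19.2 and 478 ± 18.8 CPM, and the interval of the log2 fold change was -0.02 to 0.17. An interval that includes 0 does not show that the levels were equal.

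**Figure D1:**
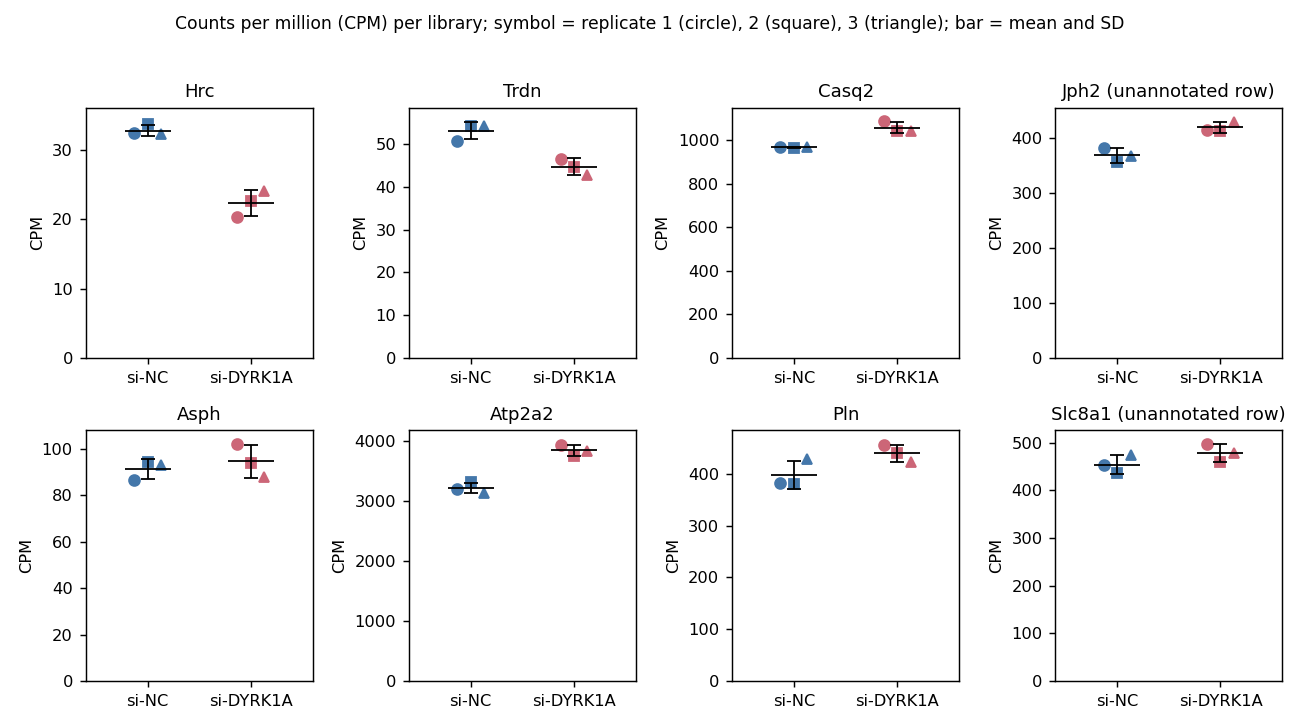
CPM (y axis from 0) of the 8 rows of the set that entered the fit, in each of the 3 si-NC and 3 si-DYRK1A libraries, with bars for the mean and SD. The mean of Hrc is 32.8 CPM in si-NC and 22.4 CPM in si-DYRK1A, and Trdn is lower as well, while Casq2, Atp2a2 and the Jph2 unannotated row have all si-DYRK1A libraries above all si-NC libraries.

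Levels of different genes can be compared only per transcript length, for which the deposited FPKM values, scaled by transcript length and by library, were used. In si-NC the order was Atp2a2 (484 ± 14.3 FPKM, SD, n = 3), Casq2 (380 ± 0.507), Pln (175 ± 12.1), the Jph2 unannotated row (69.2 ± 2.25), the Slc8a1 unannotated row (24.5 ± 1.01), Hrc (12.8 ± 0.350), Trdn (11.5 ± 0.464) and Asph (8.40 ± 0.413). No libraries of neighbours in this order overlapped. In si-DYRK1A the first 5 kept their places at 576 ± 13.6, 414 ± 10.4, 193 ± 7.33, 78.5 ± 1.70 and 25.8 ± 0.998 FPKM. Below them, Hrc (7.91, 8.81 and 9.39 FPKM), Trdn (10.0, 9.64 and 9.20) and Asph (9.36, 8.64 and 8.06) overlapped, so that Hrc no longer stood above the other 2. The Ryr2 rows together had a mean of 0.072 FPKM in si-NC and 0.056 in si-DYRK1A, and the Sln rows 0.046 and 0.047. The lengths of unannotated rows are those of the authors' models, and their levels per length depend on them.

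**Figure D2:**
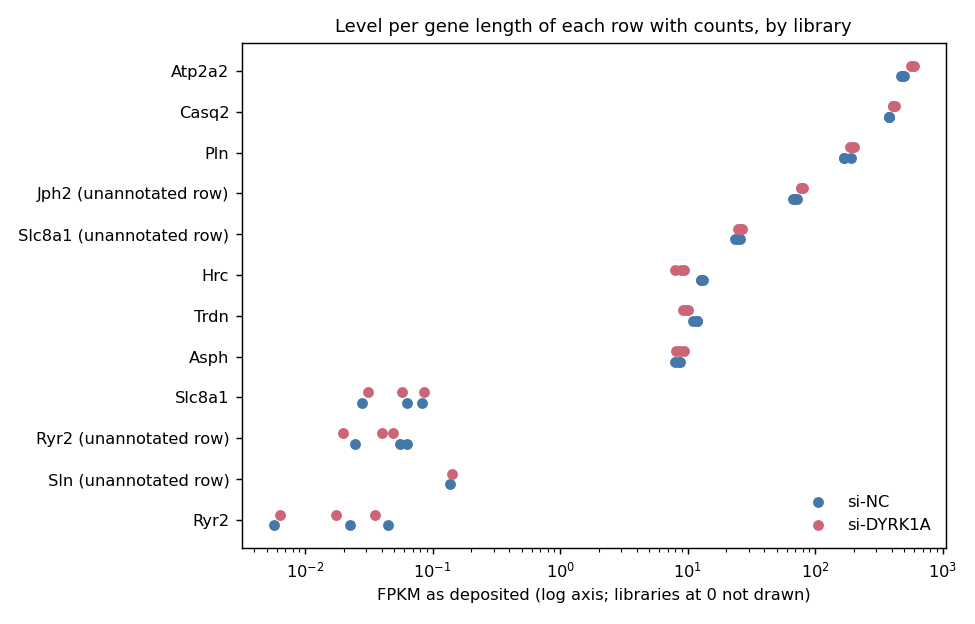
FPKM as deposited (log x axis) of each row of the set with any count, 1 point per library, si-NC in blue and si-DYRK1A in red. Atp2a2, Casq2 and Pln lie above 100 FPKM, Hrc, Trdn and Asph near 10, where the red points of the 3 genes overlap, and the rows of Ryr2 and Sln and the annotated row of Slc8a1 lie below 1.

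Ratios of counts within a library do not depend on how libraries are scaled. Per 100 counts of Casq2, Hrc had 3.35, 3.50 and 3.34 counts in si-NC and 1.87, 2.17 and 2.32 in si-DYRK1A, with means of 3.39 ± 0.091 and 2.12 ± 0.230. The groups did not overlap, and each si-DYRK1A library was below each si-NC library. Per 100 counts of Atp2a2, Hrc had 1.02 ± 0.010 counts in si-NC and 0.581 ± 0.059 in si-DYRK1A. Relative to Trdn, with which it shared its direction, Hrc went from 61.8 ± 2.17 to 50.2 ± 6.45 per 100 counts, and the si-DYRK1A libraries (43.6, 50.5 and 56.5) all lay below the si-NC libraries (63.8, 62.1 and 59.5). Trdn per 100 counts of Casq2 was 5.50 ± 0.215 and 4.23 ± 0.106, again without overlap.

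The ratio of the inhibitor to the pump was less clearly separated. There were 11.9, 11.5 and 13.7 counts of Pln per 100 of Atp2a2 in si-NC and 11.6, 11.7 and 11.0 in si-DYRK1A, and the groups overlapped. In FPKM, the ratio of Pln to Atp2a2 was between 0.323 and 0.401 in the 6 libraries. Set against Tnnc1, the troponin C of cardiac muscle, Hrc had 2.10 ± 0.064 counts per 100 in si-NC and 1.40 ± 0.185 in si-DYRK1A, and Trdn 3.40 ± 0.114 and 2.79 ± 0.064. Atp2a2 had 206 ± 7.25 and 240 ± 7.85, and Casq2 61.9 ± 0.559 and 65.9 ± 1.67. Against the other 4 cardiomyocyte markers tested, Actc1, Actn2, Myl3 and Tnnt2, the ratio of Hrc was also lower in every si-DYRK1A library than in every si-NC library (for Actn2, 2.42 ± 0.0915 and 1.33 ± 0.112 per 100 counts, and for Myl3, a myosin light chain, 1.39 ± 0.0473 and 1.02 ± 0.0797). The annotated row of Tnnt2 held only 111 to 148 counts per library and overlaps an unannotated row of its strand. Ratios to Tnnt2 may therefore rest on part of its reads. The higher level of Atp2a2 and Casq2 depended on the marker. Per 100 counts of Actc1, cardiac actin, Atp2a2 had 32.3 ± 0.922 in si-NC and 35.4 ± 0.96 in si-DYRK1A, whereas Casq2 had 9.69 ± 0.0795 and 9.71 ± 0.336. Per 100 counts of Actn2, the actinin of the Z-disc, Atp2a2 had 237 ± 8.20 and 229 ± 4.43, with overlapping groups, and Casq2 had 71.3 ± 4.48 and 62.9 ± 1.81, lower in every si-DYRK1A library. The ratios to Myl3 were higher for both, 137 ± 4.95 and 176 ± 5.47 for Atp2a2 and 41.0 ± 2.45 and 48.3 ± 1.63 for Casq2. The mean ratio of Trdn was lower against all 5 markers.

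**Figure D3:**
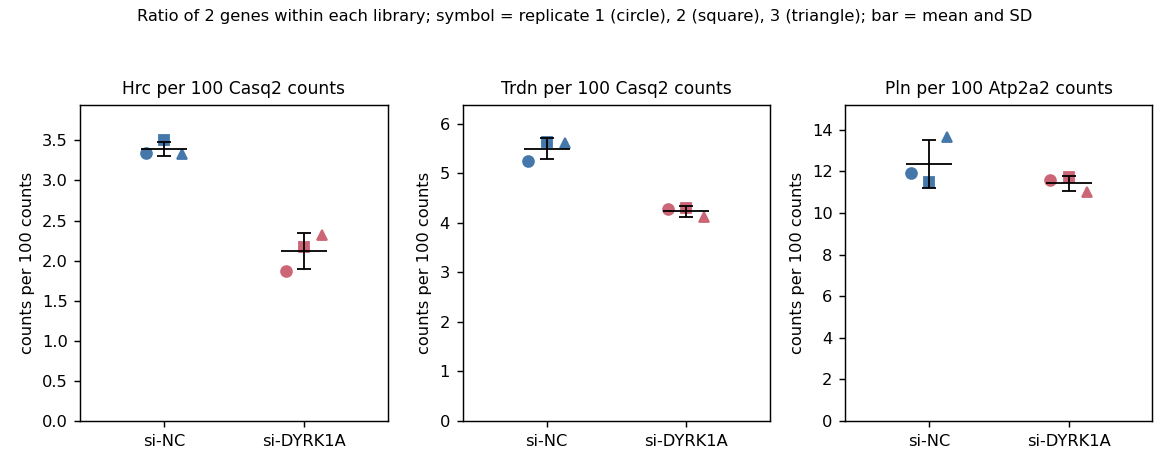
Counts of 1 gene per 100 counts of another within the same library (y axis from 0), for Hrc to Casq2, Trdn to Casq2 and Pln to Atp2a2, with bars for the mean and SD of the 3 libraries of a group. The first 2 ratios are lower in every si-DYRK1A library (means 3.39 against 2.12, and 5.50 against 4.23), and the third overlaps between groups.

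Over the 6 libraries, the log2(CPM + 1) of Hrc ran with that of Trdn (Pearson r = 0.842). It ran against those of Casq2 (-0.991), Atp2a2 (-0.952), the Jph2 unannotated row (-0.889), Pln (-0.832), the Slc8a1 unannotated row (-0.718) and Asph (-0.503). These are descriptions, since the 6 points fall into the groups being compared and share their library scaling. Among the 8195 annotated genes whose log2 CPM averaged 1 or more, the 5 closest to Hrc in this measure were Vat1 (r = 0.998), Mpzl1 (0.997), Rhob (0.997), Oaf (0.995) and Tor4a (0.994). All 5 were lower in si-DYRK1A, which follows from the ranking, since Hrc itself differed between the groups. Rhob, a small GTPase, went from 507 ± 11.6 to 371 ± 21.6 CPM, and Vat1, a vesicle membrane protein, from 708 ± 17.7 to 526 ± 33.0 CPM.

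Other genes of calcium handling were taken from 5 lists with 75 genes in all, of which 72 were found by name and 39 were tested. In the edgeR fit 3 of the 39 were called higher and 8 lower, beside 8.03% and 7.19% of all features, and 28 were not called. Their median log2 fold change was -0.11, beside 0.00 for all features. Of the release and junction genes, 11 were tested. Casq1, the calsequestrin that predominates in skeletal muscle, rose from 294 ± 4.16 to 335 ± 5.83 CPM (log2 fold change 0.19, SE 0.04, edgeR adjusted p = 0.00345), the same direction as Casq2. Sri (sorcin), which binds the ryanodine receptor, fell from 181 ± 13.4 to 154 ± 4.44 CPM (-0.24, SE 0.05, edgeR adjusted p = 0.00343), and Jph3, a junctophilin known mainly from neurons, fell from 14.8 ± 0.91 to 10.7 ± 0.911 CPM (-0.46, SE 0.12, edgeR adjusted p = 0.0125). The call of Jph3 was lost without si-DYRK1A replicate 2 (-0.42, edgeR adjusted p = 0.0704) or 3 (-0.44, 0.0564).

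Among 9 tested genes of uptake and its regulators, Prkaca, the catalytic subunit of the kinase that phosphorylates phospholamban, rose from 262 ± 5.68 to 298 ± 4.27 CPM (log2 fold change 0.19, SE 0.04, edgeR adjusted p = 0.00355). Hax1, a protein that binds phospholamban, had 17 to 49 counts per library, overlapping groups and a log2 fold change of -0.94 (SE 0.30, edgeR adjusted p = 0.0335). Its call was lost without si-NC replicate 1 (-0.72, adjusted p = 0.183) or 3 (-0.88, 0.0912) and without si-DYRK1A replicate 2 (-0.94, 0.10) or 3 (-0.79, 0.143). Its counts were the lowest of the 11 genes called. Prkaca and Hax1 each overlap an unannotated row of their strand, and how reads divide between such rows was not tested.

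Among 8 tested genes of the plasma membrane, both genes of store-operated entry that were called were lower. Stim1, also of store-operated entry, was not called (log2 fold change -0.04, SE 0.17, edgeR adjusted p = 0.913). The annotated rows of Orai1 and Orai3 were at 0, each with an unannotated row on its strand, and were not tested. Orai2, a subunit of the entry channel, fell from 52.7 ± 2.23 to 36.1 ± 2.75 CPM (log2 fold change -0.55, SE 0.08, edgeR adjusted p = 2.86e-05), and Stim2, a sensor of the calcium store, from 132 ± 1.39 to 106 ± 0.681 CPM (-0.32, SE 0.05, edgeR adjusted p = 7.51e-05). Atp2b2, a calcium pump of the plasma membrane, rose from 6.94 ± 0.805 to 10.1 ± 1.24 CPM (0.55, SE 0.16, edgeR adjusted p = 0.0229), a call lost without either replicate 1 or 3 of either group (0.46 to 0.54). Of 6 tested genes of the T-tubule and dyad, only Cav3, the caveolin of muscle, was called, at -0.15 (SE 0.04, edgeR adjusted p = 0.0272), and without either replicate 1 or 3 of either group it was not (-0.13 to -0.16). Among 5 mitochondrial genes, Mcu, the pore of the calcium uniporter, fell by 0.22 on the log2 scale (SE 0.07, edgeR adjusted p = 0.0266). The call of Mcu was lost without si-NC replicate 1 (-0.22) or 3 (-0.21) or si-DYRK1A replicate 2 (-0.21) or 3 (-0.20).

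As with Jph2 and Slc8a1, 41 of the 72 list genes had an unannotated row on their strand. Such a row was added to its gene only where it covered at least 50% of the gene and overlapped no other annotated gene of that strand. In this fit 54 genes were tested and 4 were called higher and 11 lower, beside 8.01% and 7.64% of all 15075 features. The 11 genes called without the added rows were among these. The 4 added were Cacna1c, the pore of the L-type calcium channel (log2 fold change 0.30, edgeR adjusted p = 0.00272), its auxiliary subunit Cacna2d1 (-0.27, edgeR adjusted p = 0.000542), Calm3, a calmodulin (-0.16, edgeR adjusted p = 0.00961), and Ank2, ankyrin B (-0.61, edgeR adjusted p = 6.52e-06). Of these, Ank2 was tested without the unannotated rows too and was not called.

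**Figure D4:**
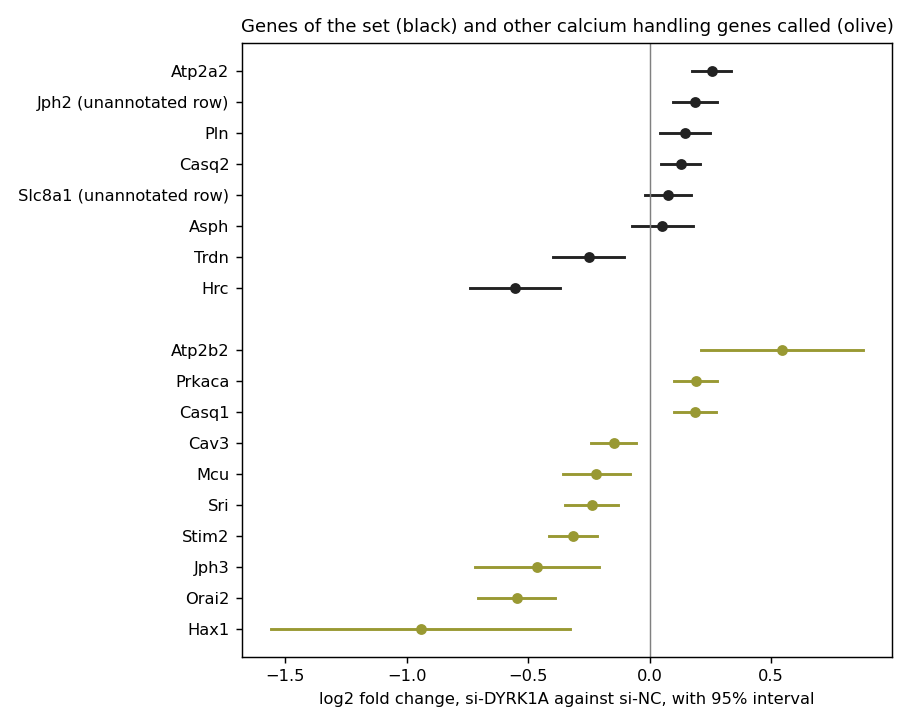
Log2 fold change of si-DYRK1A against si-NC (x axis) with its 95% confidence interval, for the 8 rows of the set (black) and 10 other calcium handling genes called (olive). Atp2a2 (0.26) and Hrc (-0.55) are the extremes of the set, and 7 of these 10 genes lie below 0.

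The labelled cell type was checked against marker lists, for which 8.03% of all features were called higher and 7.19% lower. Of 10 cardiomyocyte markers 9 were found, and Tnni3, Myh6, Myh7 and Mybpc3 were at 0 in all libraries, each under an unannotated row of its strand. The 9 summed to 15070 to 15483 CPM in si-NC and 16137 to 16567 CPM in si-DYRK1A, and of the 5 tested 2 were called higher (Actc1 and Actn2) and none lower. Most of the sum was Actc1, at 9976 ± 92.5 CPM in si-NC and 10880 ± 192 CPM in si-DYRK1A. Myl3 had the other direction, at 2362 ± 141 and 2188 ± 18.4 CPM with no overlap between groups, but was not called (edgeR log2 fold change -0.11, SE 0.04, adjusted p = 0.0878). Tnnt2, whose row also overlaps an unannotated row of its strand, had a log2 fold change of -0.14 (SE 0.14, edgeR adjusted p = 0.595). Beside the higher Atp2a2, Casq2, Pln and Jph2 unannotated row, the summed level of cardiomyocyte markers was also higher, as were those of ventricular (75.7 to 83.0 against 90.1 to 96.3 CPM, with Myl2 at 0) and atrial markers (7153 to 7882 against 9249 to 10159 CPM, nearly all Nppa). Hrc and Trdn, also genes of muscle cells, had the opposite direction.

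Beside the lower Hrc and Trdn, the 6 endothelial markers summed to 170 to 189 CPM in si-NC and 138 to 144 CPM in si-DYRK1A. Of 6 tested, 3 were lower (Cdh5, Tek and Tie1), beside 7.19% of all features. Fibroblast markers summed to 21531 to 26245 and 20368 to 21107 CPM, with 2 of 6 tested higher (Lum and Postn), beside 8.03% of all features, and Pdgfra at 0. Col1a1 had the other direction, at 14341 ± 1917 and 11113 ± 196 CPM with no overlap between groups, but was not called (edgeR log2 fold change -0.37, SE 0.10, adjusted p = 0.0869). Smooth muscle and pericyte markers gave 575 to 582 and 567 to 594 CPM, with 0 of 3 called and Myh11 and Acta2 at 0. Macrophage markers gave 109 to 121 and 102 to 112 CPM, with 1 of 5 tested higher (Cd163) and Cd68 at 0. The other tested macrophage markers had the other direction but were not called. Their edgeR log2 fold changes were -0.54 (Adgre1), -0.31 (Aif1), -0.21 (Ptprc) and -0.13 (Csf1r). Postn (71 to 182 counts per library) and Cd163 (43 to 116) were low rows that overlap an unannotated row of their strand. The rows at 0, namely Pdgfra, Myh11, Acta2 and Cd68, and Myl2 above, overlap such a row as well. Their values of 0 are therefore not read as absence, and the sums may leave out part of the reads of these genes. The part of cell composition in the values of the 10 genes was not tested.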

How the data were processed

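RNA-seq was analysed from 3 si-NC and 3 si-DYRK1A libraries, grouped by their labels. Per the paper's methods, the authors used HISAT2 with the rat build Rnor_6.0, whereas the submitters' processing notes name Bowtie 0.12.2 and the mouse build mm8. The identifiers and positions in the deposited table are of rat. The counting tool, its annotation and its strand setting were not given in the sources used here. Raw counts per gene were deposited by the authors, including 10152 rows of unannotated transcripts (17.2% to 17.5% of the counts), and also FPKM values, scaled by length and library.

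Counts were tested with edgeR 4.0.16 in R 4.3.3 (quasi-likelihood test, TMM, robust fit, filterByExpr with a minimum count of 10 and a total of 15, Benjamini-Hochberg adjustment, threshold 0.05, two-sided, no fold threshold). Every fit covered all features. The biological coefficient of variation was 8.82%. CPM used TMM-scaled library sizes, and 95% intervals came from the fit. P-values set the difference between groups against the spread between these cultures, which the fit estimates with information from all features. Precision depends on the library totals, here 10325074 to 11921772 counts, and on the spread between cultures. A count of 0 was taken to allow up to 3 counts, for counting error only.

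Unannotated rows on the strand of a gene were reported apart, and as a sum in an alternative. For genes outside the set, the sum took only rows that covered at least 50% of the gene and overlapped no other annotated gene of that strand. FPKM values gave level order with no test. Motifs were searched on both strands of RefSeq GRCr8 promoters. The genes and lists were chosen with earlier results of these data known. Named were all genes of the set and their unannotated rows, Dyrk1a, the list genes called (1 of them is not reported here), the neighbours of Hrc and the 5 genes most correlated with it. Oser1, Cep85l, Cacna1c, Cacna2d1, Calm3 and Ank2 were named, and ratios to the 5 cardiomyocyte markers were formed, after values were seen. Alternatives were RLE, no low-count filter, scaling by library size only, a replicate block, leaving out each library, DESeq2 1.42.0, and limma 3.58.1 on log2(FPKM + 1) or log2(FPKM + 0.1) for FPKM above 0.5 in at least 3 libraries. Scripts were tested on simulated data.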

Additional observations from a re-analysis of the deposited data

How the results depend on the processing

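The sign of all 8 rows of the set was kept under 14 alternatives, apart from Asph (-0.0043 to 0.10 on the log2 scale). Hrc lay between -0.61 and -0.49, both reached by leaving out a library, and the median of the 8 rows between 0.08 and 0.12. Hrc, Atp2a2 and the Jph2 unannotated row were called under each alternative. Since the genes were picked for this contrast, calls of the set describe the fits and are no support for a change. Pln was not called with RLE, library size only, the block, DESeq2, limma or without 5 of the 6 libraries. Casq2 was not called with library size only (0.10), no filter, the block, limma or without si-NC replicate 1 or 3 or any si-DYRK1A library (0.11 to 0.14). Trdn was not called with DESeq2 or limma, nor without si-NC replicate 2 (-0.24) or si-DYRK1A replicate 2 (-0.25) or 3 (-0.22). The cause was not tested.

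Features called numbered 2360, and 1199 and 1180 by limma on log2(FPKM + 1) and log2(FPKM + 0.1), 1575 by DESeq2, and 1614 to 2210 with a library left out. Of the other calcium handling genes, 11 were called, 7 by DESeq2, 6 by either limma fit, and 7 to 11 with a library left out (7 without si-NC replicate 1 or si-DYRK1A replicate 3). The lower ones numbered 8, then 5 by DESeq2, 4 by either limma fit and 5 to 8 with a library left out (5 without si-NC replicate 1 or si-DYRK1A replicate 2 or 3), and the higher ones 3, then 2 by DESeq2 and limma and 2 to 3 with a library left out. Jph3, Hax1, Atp2b2 and Mcu lost their calls with DESeq2, Jph3, Sri, Hax1, Atp2b2 and Cav3 with limma, and Jph3 also without si-DYRK1A replicate 2 (-0.42) or 3 (-0.44). With library size only, 44.3% of calls were higher, against 52.8%. The cause was not tested.

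No pairing by replicate number was visible. Same-numbered libraries had correlations of deviations of 0.058, -0.026 and -0.004, and different-numbered ones of -0.055 to 0.059. Whether same-numbered cultures shared a preparation cannot be read from these values. With the replicate block 2269 features were called, and of the other calcium handling genes 11, although Cav3 was no longer among those called here (-0.15, adjusted p = 0.0582). With a block, 2 rows of the set were called higher and 2 lower, and the log2 fold change of Hrc was -0.55. Ryr2 and Sln had too few counts for a difference to be seen, and why their counts were low was not tested.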
